A study of Mus musculus with 16 samples.

Results

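Collagen genes encode the triple-helical chains from which the main fibres and sheets of the extracellular matrix are built. The account covers the 44 mouse genes whose symbol has the form of a collagen chain (Col, a type number, a and a chain number) in every deposited table, out of 26239 genes listed. Of these, 21 reached the threshold of 0.5 RPKM (read counts scaled by transcript length and library depth) in at least 1 group and are described gene by gene, and 23 stayed under it in every group. The cells were wild-type E14Tg2A, a mouse embryonic stem cell line, kept in medium with serum and LIF, a cytokine that prevents differentiation. NiCl2, a soluble salt of nickel, was given at 0, 100, 150 or 200 µM and renewed after each passage, and cells were collected on day 4 and on day 6, with 2 libraries in each of 8 groups. Untreated cells of the same day are the controls, so the 3 doses of a day share their control libraries. The title of the series places nickel in the context of epigenetic repression of developmental genes.

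The authors' deposited tables hold 1 RPKM value per group and none per library. An RPKM is therefore the authors' value for its group, without an error. Log2 fold changes (nickel over control), p-values and adjusted p-values are the authors' own, and a gene is called higher or lower where their adjusted p was under 0.05. The error after ± is the standard error that the authors' p-value implies. Whether the 2 libraries of a group were separate cultures is not in the labels, and the spread behind the p-values may be only technical. Steps in the RPKM of low genes placed the depth of the 16 libraries between 34 and 76.8 megareads, with the shallowest in the 150 µM group of day 6.

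Collagen chains join in threes, as one kind of chain or as a fixed mixture, so partner genes are usually expressed together. Fibrillar collagens form the cables of bone, skin and cartilage, the network collagen IV forms the sheet of basement membranes, and other classes decorate fibrils, anchor epithelia or span the cell membrane. In the early embryo collagen IV and collagen XVIII lie in the basement membranes under the first epithelia, and most fibrillar collagens belong to later mesenchyme and cartilage.

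Because the title concerns repression, the 250 bases before the annotated start are shown for 3 genes called in 3 or more comparisons (picked after their values were seen), with every CpG, the dinucleotide that carries DNA methylation, in capitals. Col9a2 and Col13a1 were higher with nickel, and Col6a5 was lower. The stretches are from RefSeq (GRCm38.p6), read 5′ to 3′ on the strand of the gene. Col9a2 lies on the plus strand (chr4:121039316-121039565), Col13a1 on the minus strand (chr10:61979109-61979358) and Col6a5 on the minus strand (chr9:105960644-105960893).
Col9a2: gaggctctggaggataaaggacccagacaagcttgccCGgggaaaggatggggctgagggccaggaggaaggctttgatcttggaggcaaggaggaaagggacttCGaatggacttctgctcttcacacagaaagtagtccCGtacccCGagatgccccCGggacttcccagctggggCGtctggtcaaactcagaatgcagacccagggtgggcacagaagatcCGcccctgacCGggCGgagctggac
Col13a1: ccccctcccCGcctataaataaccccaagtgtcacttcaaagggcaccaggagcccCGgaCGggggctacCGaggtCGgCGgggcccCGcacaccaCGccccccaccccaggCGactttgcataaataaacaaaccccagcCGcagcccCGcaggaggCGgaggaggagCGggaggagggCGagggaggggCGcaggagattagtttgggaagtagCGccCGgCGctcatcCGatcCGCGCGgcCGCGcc
Col6a5: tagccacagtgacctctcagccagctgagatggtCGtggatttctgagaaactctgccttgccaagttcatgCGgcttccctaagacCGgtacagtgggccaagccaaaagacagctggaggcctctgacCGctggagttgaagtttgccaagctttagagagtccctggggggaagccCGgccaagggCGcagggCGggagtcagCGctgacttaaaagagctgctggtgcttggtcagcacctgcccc
Col13a1 had 24 CpG in this stretch, more than 88.0% of the 32851 RefSeq windows of the same length, whose median was 6. Col9a2 had 9 CpG (more than 59.7% of windows) and Col6a5 had 8 (more than 57.0%). A link of CpG count to the direction of change was not tested. The core of the site bound by hypoxia-inducible factors, ACGTG or GCGTG on either strand, was present in the upstream stretch of 6 of the 16 described genes with a window, against 38.6% of all windows.

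Collagen RNA in these cells was mostly Col18a1, which encodes the core of a basement membrane proteoglycan whose end fragment is endostatin. It was at 72.3, 70.9, 65.3 and 60.8 RPKM at 0, 100, 150 and 200 µM on day 4, and at 81.1, 73.3, 59.0 and 56.7 RPKM on day 6. The next most abundant genes were Col9a2, Col4a1 and Col4a2, and in every group these 4 genes held between 81.4 and 84.2% of the summed collagen RPKM. The other 17 described genes peaked between 0.562 RPKM (Col16a1) and 2.9 RPKM (Col5a1). The sum over all 44 genes was 115, 111, 114 and 118 RPKM with rising dose on day 4 and 119, 114, 99.6 and 115 RPKM on day 6. Within that sum the share of Col18a1 was 63.1, 63.6, 57.4 and 51.5% on day 4 and 68.4, 64.4, 59.2 and 49.4% on day 6. Without Col18a1 the sum was 42.3, 40.5, 48.5 and 57.3 RPKM on day 4 and 37.5, 40.5, 40.6 and 58.2 RPKM on day 6. Col18a1 was thus the lowest and the other collagens together the highest at 200 µM on both days. The rise of that sum was not general. Col9a2, Col4a1 and Col4a2 were each highest at 200 µM on both days, while Col5a3 and Col6a4 were lowest there. In bulk RNA such a change in level cannot tell fewer cells of a type from less RNA per cell. The scaling of RPKM and of the authors' log2 fold changes can also differ, as at 150 µM on day 6. There Col9a2 was at 9.82 RPKM, below 10.3 RPKM at 100 µM, with authors' log2 fold changes of 0.55 and 0.53. The part of scaling in the sum of 99.6 RPKM was not tested.

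**Figure D1:**
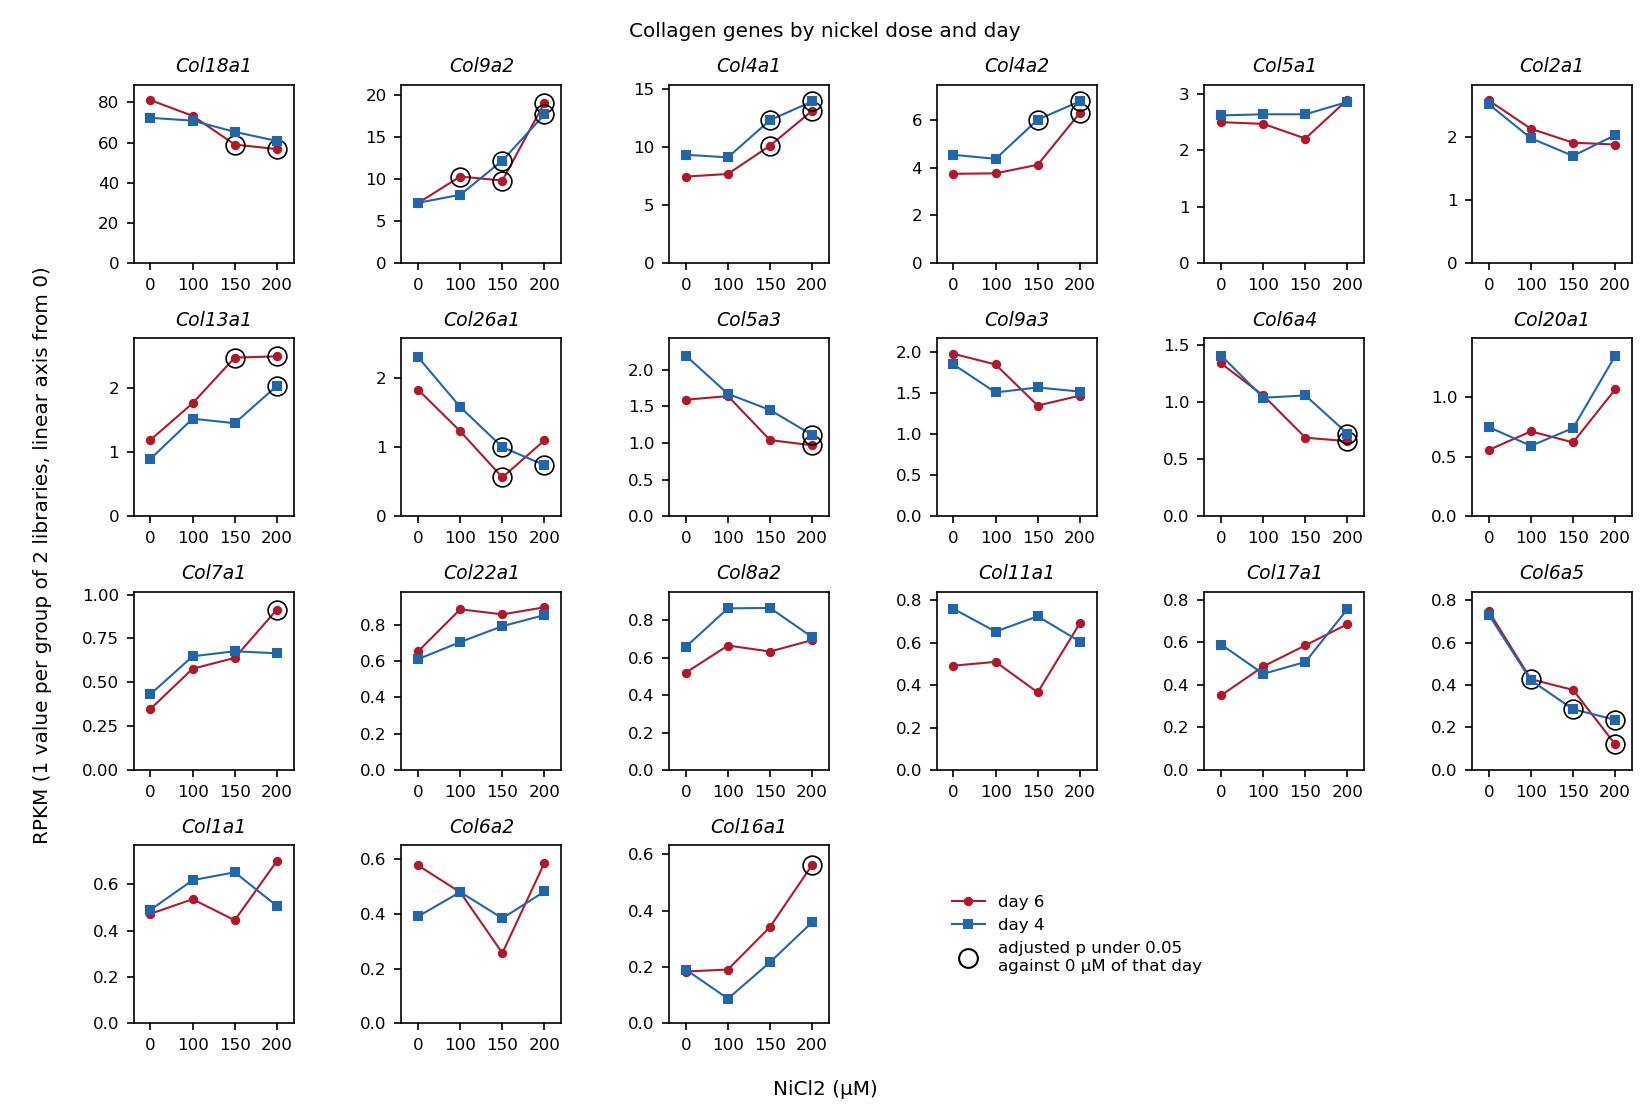
The authors' RPKM values of the 21 described collagen genes (y axes, linear from 0, each with its own scale) by NiCl2 dose (x axis, µM), with circles for day 6 and squares for day 4; each point is 1 value per group of 2 libraries. Ringed points are those the authors' deposited tables called against 0 µM of their day (adjusted p under 0.05): Col9a2 climbs to 19.1 RPKM on day 6 and 17.7 RPKM on day 4 at 200 µM, and Col6a5 drops to 0.121 and 0.236 RPKM.

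Collagen genes were called in both directions. In at least 1 of the 6 comparisons the authors' deposited tables called 6 genes higher (Col9a2, Col4a1, Col4a2, Col13a1, Col7a1 and Col16a1) and 5 lower (Col18a1, Col26a1, Col5a3, Col6a4 and Col6a5). Of all genes reaching 0.5 RPKM, 11.4% were called higher and 9.38% lower in at least 1 comparison. Col16a1 and Col7a1, and Col1a1 among the genes not called, reached the threshold in nickel groups alone, and Col6a5 in controls alone. These genes entered through the groups where they are high, so the counts over the 21 are a description. None of the 21 was called in both directions, and 10 were called in no comparison.

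On day 4 at 100 µM the authors' DESeq2 results called 0 of the 21 genes (2 had an unadjusted p under 0.05), where 0.789% of all genes reaching 0.5 RPKM were called higher and 0.602% lower. At 150 µM 3 were higher (Col9a2, Col4a1 and Col4a2) and 2 lower (Col26a1 and Col6a5), against a background of 4.71% higher and 4.38% lower. At 200 µM 4 were higher, the same genes and Col13a1, and 4 lower (Col26a1, Col5a3, Col6a4 and Col6a5), where 5.64% of the background was higher and 5.0% lower.

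On day 6 at 100 µM Col9a2 was the 1 gene called higher and Col6a5 the 1 called lower, with 2.29% of the background higher and 1.73% lower. At 150 µM 3 genes were higher (Col9a2, Col4a1 and Col13a1) and 2 lower (Col18a1 and Col26a1), where the background was 3.16% higher and 2.74% lower. At 200 µM 6 were higher (Col9a2, Col4a1, Col4a2, Col13a1, Col7a1 and Col16a1) and 4 lower (Col18a1, Col5a3, Col6a4 and Col6a5), against 6.72% and 6.01% of the background.

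In the authors' deposited tables the median over the 21 genes was -0.02, 0.03 and 0.18 at 100, 150 and 200 µM on day 4, and 0.05, 0.0 and 0.47 on day 6. The median of all genes over the threshold lay between -0.01 and 0.01 in every comparison. The interquartile range of the authors' log2 fold changes was 0.57, 0.62 and 0.88 for the collagen genes on day 4, against 0.28, 0.33 and 0.47 for all genes. On day 6 it was 0.5, 0.99 and 1.36 for the collagen genes, against 0.25, 0.37 and 0.46. The implied standard errors differed as well, with medians of 0.24 to 0.35 for the collagen genes and 0.13 to 0.19 for all genes, and the part of this error in the wider range was not tested. The median of 0.47 at 200 µM on day 6 became -0.09 when taken over the 12 genes that reach 1 RPKM.

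**Figure D2:**
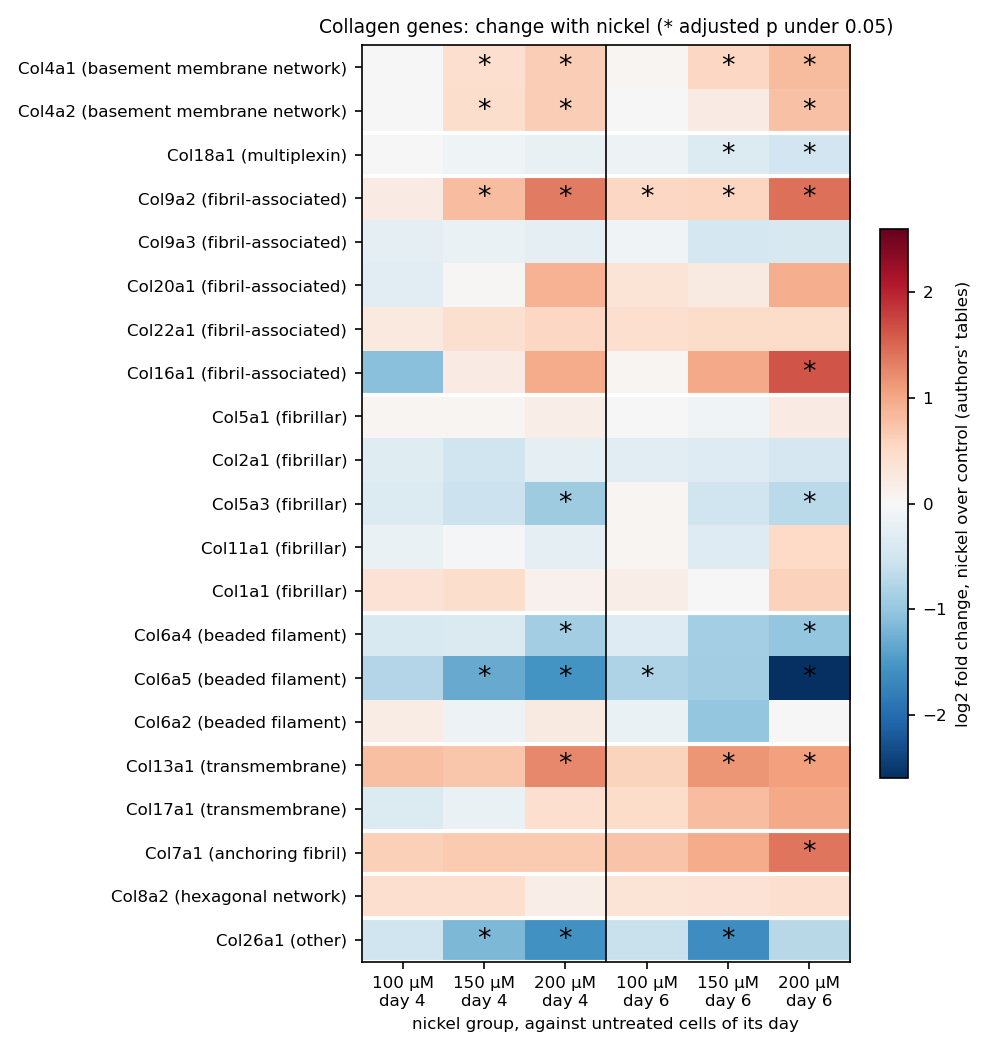
The authors' log2 fold change (nickel over untreated cells of the same day; colour) for each of the 21 described collagen genes (rows, grouped by class) in the 6 comparisons (columns, dose in µM and day). A star marks a gene called in the authors' deposited tables (adjusted p under 0.05): the starred genes of one row share 1 direction, with Col9a2 starred in 5 columns and Col6a5 in 4.

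The basement membrane chains Col4a1 and Col4a2 rose together at 200 µM. They encode the chains of the common collagen IV molecule, which is made of both. Col4a1 was at 9.31, 9.09, 12.3 and 13.9 RPKM with rising dose on day 4, and at 7.43, 7.66, 10.1 and 13.1 RPKM on day 6. Col4a2 was at 4.55, 4.38, 6.03 and 6.8 RPKM on day 4, and at 3.75, 3.77, 4.13 and 6.31 RPKM on day 6. Both genes were highest at 200 µM on both days, and neither was called at 100 µM. The authors' deposited tables gave Col4a1 log2 fold changes of 0.44 ± 0.09 (adjusted p = 2.27e-05) and 0.63 ± 0.14 (adjusted p = 0.000328) at 150 and 200 µM on day 4. On day 6 the authors' deposited tables gave it 0.53 ± 0.13 (adjusted p = 0.0018) and 0.83 ± 0.17 (adjusted p = 3.74e-05). For Col4a2 the authors' deposited tables gave 0.45 ± 0.12 (adjusted p = 0.00476) and 0.64 ± 0.18 (adjusted p = 0.00689) on day 4 and 0.76 ± 0.2 (adjusted p = 0.00309) at 200 µM on day 6. The exception was 150 µM on day 6, where Col4a2 was not called (0.22 ± 0.18, adjusted p = 0.609, in the authors' deposited table).

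Col4a1 and Col4a2 lie head to head on chromosome 8. Col4a1 runs on the minus strand (chr8:11198423-11312826) and Col4a2 on the plus strand (chr8:11312805-11449287), and the annotated transcripts overlap by 22 bases at their starts. These shared bases are shown in capitals in a stretch of the plus strand (chr8:11312801-11312830), since both genes start from it.
Col4a1 and Col4a2: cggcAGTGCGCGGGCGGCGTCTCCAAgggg
The stretches before the 2 starts were rich in CpG, with 31 for Col4a1 (more than 94.8% of windows) and 26 for Col4a2 (more than 90.4%). The library kit is a stranded one, per the labels, and whether the counting used strand is not given in the sources used here. The ratio of Col4a1 to Col4a2 RPKM stayed between 1.98 and 2.08 in 7 of the 8 groups and was 2.45 at 150 µM on day 6. The other collagen IV genes (Col4a3, Col4a4, Col4a5 and Col4a6) stayed under 0.5 RPKM, with Col4a5 the highest at 0.139 RPKM.

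Col18a1 fell on day 6. The gene lies at chr10:77052179-77113705 on the minus strand. By the authors' deposited tables it was 1.28-fold lower at 150 µM (log2 fold change -0.36 ± 0.09, adjusted p = 0.00248) and 1.41-fold lower at 200 µM (-0.49 ± 0.13, adjusted p = 0.00279). At 100 µM it was not called on day 6 (-0.14 ± 0.07, adjusted p = 0.308, in the authors' deposited table). On day 4 the authors' deposited tables gave 0.01 ± 0.08, -0.11 ± 0.07 and -0.19 ± 0.12 with rising dose, none of them called. Its RPKM was lower at each higher dose on both days. Col15a1, the other gene of this class, had at most 0.0654 RPKM.

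Col9a2, which encodes a chain of collagen IX, a molecule that coats the type II fibrils of cartilage, was the collagen gene called most often. It was at 7.17, 8.12, 12.2 and 17.7 RPKM with rising dose on day 4, and at 7.15, 10.3, 9.82 and 19.1 RPKM on day 6. All 6 nickel values were above both control values. The authors' deposited tables gave log2 fold changes of 0.22 ± 0.17 (adjusted p = 0.822), 0.81 ± 0.13 (adjusted p = 7.65e-08) and 1.36 ± 0.16 (adjusted p = 2.86e-15) on day 4. On day 6 the authors' deposited tables gave 0.53 ± 0.11 (adjusted p = 0.000389), 0.55 ± 0.16 (adjusted p = 0.0205) and 1.43 ± 0.18 (adjusted p = 2.69e-12), a 2.7-fold rise at 200 µM. The gene lies at chr4:121039566-121055325, and no other gene of the tables overlaps it.

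The partner chains of Col9a2 were not called in any comparison. Col9a3, which encodes another chain of collagen IX, was at 1.85, 1.51, 1.57 and 1.52 RPKM on day 4 and at 1.98, 1.85, 1.35 and 1.47 RPKM on day 6. Its log2 fold change at 200 µM in the authors' deposited tables was -0.23 ± 0.4 on day 4 and -0.41 ± 0.27 on day 6. Col9a1, the gene of the third chain, had at most 0.0411 RPKM and was listed at 0 in 1 group. The ratio of Col9a2 to Col9a3 RPKM at 0, 100, 150 and 200 µM was 3.88, 5.38, 7.77 and 11.6 on day 4 and 3.61, 5.57, 7.27 and 13 on day 6. Col9a3 shares 237 bases with Tcfl5 on the opposite strand, so its value may hold reads of that gene if strand was not used in counting.

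**Figure D3:**
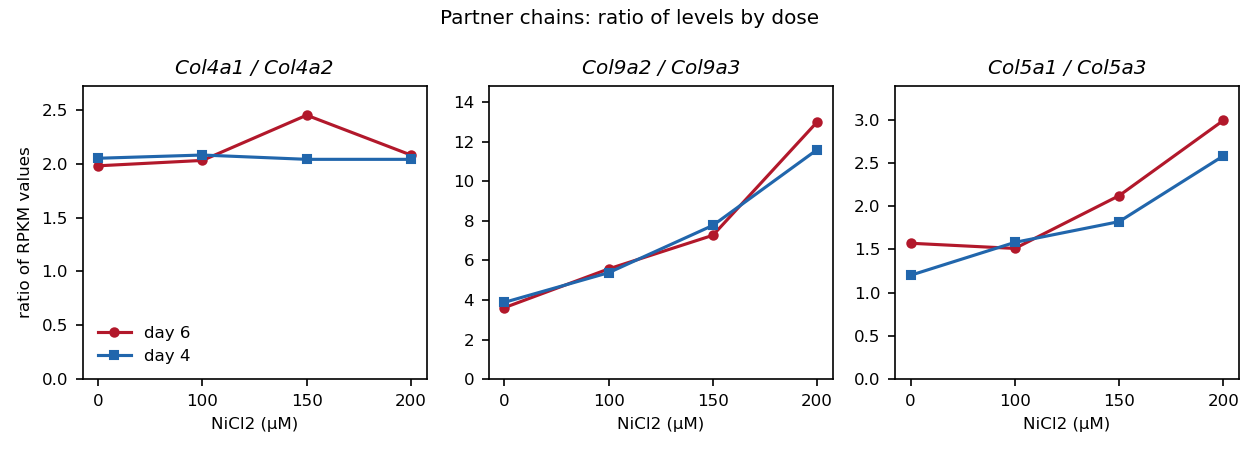
Ratio of the authors' RPKM values (y axis, linear from 0) of 3 pairs of partner chains by NiCl2 dose (x axis, µM), with circles for day 6 and squares for day 4; each point is 1 ratio of group values, with no error. Col4a1 over Col4a2 stays near 2.05 apart from 2.45 at 150 µM on day 6, while Col9a2 over Col9a3 reaches 13 on day 6 and 11.6 on day 4, and Col5a1 over Col5a3 reaches 2.99 and 2.58.

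Of the other fibril-associated genes, Col16a1 was called in 1 comparison and Col20a1 and Col22a1 in none. Col16a1 was at 0.191, 0.0877, 0.217 and 0.359 RPKM on day 4 and at 0.184, 0.191, 0.342 and 0.562 RPKM on day 6. By the authors' deposited table it was 3.08-fold higher at 200 µM on day 6 (1.63 ± 0.43, adjusted p = 0.00309). Col16a1 entered the described genes only through that group, and is the gene just inside the threshold, followed by Col6a2 at 0.587 RPKM. The highest gene outside was Col27a1 at 0.322 RPKM. Col20a1 was highest at 200 µM on both days, at 1.34 RPKM against 0.746 RPKM in controls on day 4 and 1.06 against 0.555 RPKM on day 6. Its log2 fold changes there missed the threshold in the authors' deposited tables (0.9 ± 0.39, adjusted p = 0.138, and 0.94 ± 0.37, adjusted p = 0.0824). Col22a1, whose product lies where muscle meets tendon, ranged from 0.706 to 0.898 RPKM in nickel groups and was 0.612 and 0.655 RPKM in controls.

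Among the membrane-spanning collagens Col13a1 rose and Col17a1 was not called. Col13a1 encodes a collagen of cell adhesion sites, known at the neuromuscular junction. It was at 0.895, 1.52, 1.45 and 2.03 RPKM with rising dose on day 4, and at 1.19, 1.76, 2.47 and 2.49 RPKM on day 6. Each nickel value was above both controls. The authors' deposited tables gave 1.25 ± 0.38 (adjusted p = 0.0146) at 200 µM on day 4, and 1.14 ± 0.32 (adjusted p = 0.0131) and 1.07 ± 0.29 (adjusted p = 0.00521) at 150 and 200 µM on day 6. Col17a1, a collagen of hemidesmosomes, was at 0.59, 0.452, 0.508 and 0.757 RPKM on day 4 and at 0.351, 0.487, 0.586 and 0.686 RPKM on day 6. The nearest it came to the threshold was 200 µM on day 6 (0.98 ± 0.36, adjusted p = 0.0576, in the authors' deposited table).

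Col7a1, the collagen of the anchoring fibrils that fasten epidermis to dermis, was higher than control in every nickel group. It reached 0.5 RPKM in nickel groups alone, so this order is a description. Its RPKM at 0, 100, 150 and 200 µM was 0.432, 0.648, 0.677 and 0.665 on day 4 and 0.348, 0.577, 0.639 and 0.914 on day 6. The authors' deposited tables called it at 200 µM on day 6, where it was 2.65-fold higher (1.4 ± 0.31, adjusted p = 0.0002). Elsewhere in the authors' deposited tables its adjusted p lay between 0.0703 and 0.559. Its span holds the microRNA gene Mir711 on the same strand, over 82 bases. Col8a2, a short-chain collagen of the membrane under the corneal endothelium and the highest gene of its class, was at 0.71 RPKM in nickel cells at 200 µM against 0.658 RPKM in controls on day 4 and at 0.694 against 0.52 RPKM on day 6. It was not called (0.18 ± 0.44 and 0.44 ± 0.38, adjusted p = 0.874 and 0.531, in the authors' deposited tables).

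The fibrillar class split, with Col5a3 lower and its partner Col5a1 not called. Col5a1 and Col5a3 encode chains of collagen V, which starts and limits the growth of type I fibrils. Col5a3 was at 2.19, 1.67, 1.45 and 1.11 RPKM on day 4 and at 1.59, 1.64, 1.04 and 0.969 RPKM on day 6. By the authors' deposited tables it was lower at 200 µM on day 4 (-0.92 ± 0.24, adjusted p = 0.00312) and on day 6 (-0.7 ± 0.23, adjusted p = 0.0257). Col5a1, the highest fibrillar gene, was at 2.62, 2.64, 2.64 and 2.86 RPKM on day 4 and at 2.5, 2.47, 2.21 and 2.9 RPKM on day 6. Its log2 fold changes in the authors' deposited tables lay between -0.09 ± 0.17 and 0.22 ± 0.21, with adjusted p from 0.563 to 0.99. Col5a2, the third chain gene, had at most 0.298 RPKM.

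The remaining fibrillar genes were not called. Col2a1, the main collagen of cartilage, was at 2.52, 1.98, 1.7 and 2.03 RPKM on day 4 and at 2.58, 2.13, 1.91 and 1.88 RPKM on day 6, below control at each dose. Its lowest adjusted p in the authors' deposited tables was 0.143, at 150 µM on day 4 (-0.52 ± 0.22). Col11a1, which seeds cartilage fibrils, ranged from 0.366 to 0.725 RPKM in nickel groups, and was 0.76 and 0.492 RPKM in the controls of day 4 and day 6. Col1a1, the main chain of bone and skin collagen, ranged from 0.445 to 0.7 RPKM with nickel and was 0.49 and 0.473 RPKM without it. Col1a2, the other chain of collagen I, had at most 0.159 RPKM.

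The beaded filament class held the largest fall. Col6a5 and Col6a4 encode long chains that can take the third place in collagen VI beside the products of Col6a1 and Col6a2. Col6a5 was at 0.731, 0.422, 0.286 and 0.236 RPKM with rising dose on day 4, and at 0.747, 0.427, 0.377 and 0.121 RPKM on day 6. Both controls were above all 6 nickel values, and the level was lower at each higher dose. Col6a5 reached 0.5 RPKM in controls alone, so the order of controls above nickel groups is a description. The authors' deposited tables gave -0.76 ± 0.32 (adjusted p = 0.379), -1.31 ± 0.32 (adjusted p = 0.00114) and -1.56 ± 0.4 (adjusted p = 0.00295) on day 4. On day 6 the authors' deposited tables gave -0.8 ± 0.24 (adjusted p = 0.0276), -0.9 ± 0.33 (adjusted p = 0.0864) and -2.6 ± 0.36 (adjusted p = 1.39e-10), which is 6.08-fold lower at 200 µM.

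Col6a4 was at 1.41, 1.04, 1.06 and 0.726 RPKM on day 4 and at 1.34, 1.06, 0.69 and 0.659 RPKM on day 6. As with Col6a5, both controls were above all nickel values. The authors' deposited tables called it at 200 µM on day 4 (-0.9 ± 0.27, adjusted p = 0.0159) and on day 6 (-1.0 ± 0.24, adjusted p = 0.000832). Col6a2 was not called and lay at 0.391, 0.48, 0.384 and 0.482 RPKM on day 4 and at 0.577, 0.479, 0.257 and 0.587 RPKM on day 6. Col6a1 had at most 0.136 RPKM and Col6a3 at most 0.0331 RPKM, so in control cells each of these 3 genes was lower per length than Col6a4 and Col6a5.

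Col6a4, Col6a5 and Col6a6 stand in a row on the minus strand of chromosome 9 with no other gene of the tables between them. Col6a6 spans chr9:105689417-105828085, Col6a5 chr9:105856070-105960643 and Col6a4 chr9:105990318-106096691, with gaps of 28.0 and 29.7 kb. Col6a6 was under the threshold at 0.215, 0.125 and 0.141 RPKM with nickel on day 4, against 0.24 RPKM in controls, and at 0.105, 0.0591 and 0.0935 RPKM on day 6, against 0.209 RPKM. Its log2 fold changes in the authors' deposited tables ran from -0.12 ± 0.58 to -1.73 ± 0.84 and none was called. The outer neighbours were not called in any comparison. Pik3r4, a kinase regulator gene, was at 14.3 RPKM at 200 µM against 13.4 RPKM in controls on day 4 and at 13.3 against 13.7 RPKM on day 6. Glyctk, a glycerate kinase gene, was at 1.78 against 2.19 RPKM on day 4 and at 1.97 against 1.84 RPKM on day 6.

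**Figure D4:**
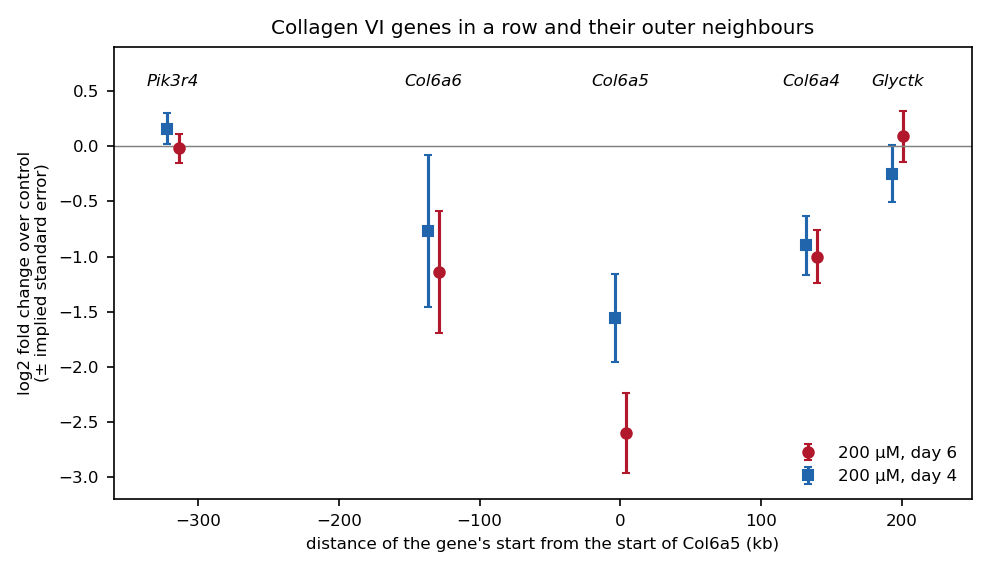
The authors' log2 fold change at 200 µM NiCl2 over control (y axis, bars are ± 1 implied standard error) against the distance of each gene's start from the start of Col6a5 (x axis, kb), with circles for day 6 and squares for day 4, set slightly apart. Col6a5 lies at -2.6 on day 6 and -1.56 on day 4 and Col6a4 at -1.0 and -0.9, while the outer neighbours Pik3r4 and Glyctk lie between -0.25 and 0.16.

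Col26a1 belongs to no large class and was first known from testis and ovary. It was at 2.3, 1.58, 1.0 and 0.741 RPKM with rising dose on day 4, and at 1.83, 1.23, 0.563 and 1.1 RPKM on day 6. All nickel values were below both controls, but on day 6 the lowest was at 150 µM. The authors' deposited tables gave -1.16 ± 0.35 (adjusted p = 0.0165) and -1.58 ± 0.45 (adjusted p = 0.00807) at 150 and 200 µM on day 4. On day 6 the authors' deposited tables gave -1.61 ± 0.41 (adjusted p = 0.00345) at 150 µM, and it was not called at 200 µM (-0.72 ± 0.33, adjusted p = 0.141).

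The effect of nickel was not shown to differ between day 6 and day 4 for any described collagen gene. The deposited log2 fold changes of both days were compared by a z test (two-sided, adjusted over all genes tested on both days), which called 0 of 21 at 100, 150 and 200 µM. It called 7 of 18734, 14 of 18784 and 9 of 18889 genes. With so few calls among all genes, 0 of 21 is not a result about collagen genes. The smallest unadjusted p was 0.0249 for Col18a1 at 150 µM, where the authors' deposited log2 fold changes were -0.36 on day 6 and -0.11 on day 4, a difference of -0.25 ± 0.11. That was the 1 collagen gene with an unadjusted p under 0.05 at any dose. For Col6a5 at 200 µM the difference of the authors' deposited log2 fold changes was -1.05 ± 0.54 (p = 0.0535), and for Col9a2 it was 0.07 ± 0.24 (p = 0.768). All adjusted p for these genes were 1.0, so the test does not show that the days are alike.

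Levels in untreated cells and between doses can be set side by side without a test. The log2 ratio of day 6 over day 4 RPKM in untreated cells, with 0.1 added to each value, had a median of -0.07 over the 21 genes and ran from -0.61 (Col17a1) to 0.46 (Col6a2). For 200 over 100 µM the same ratio had a median of 0.03 on day 4, from -1.0 to 1.29, and of 0.25 on day 6, from -1.25 to 1.19. Col6a5 was the lowest of these on day 6, at 0.121 RPKM against 0.427 RPKM.

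Of the 23 genes under the threshold, 15 stayed under 0.1 RPKM in every group, 8 were listed at 0 in at least 1 group and 0 were called by the authors' DESeq2 in any comparison, while 5 had an unadjusted p under 0.05 in at least 1. These counts have no share of all genes under the threshold beside them, so they are a description. Col3a1, the collagen of pliable connective tissue, had at most 0.015 RPKM and was listed at 0 in 6 groups, as was Col8a1, at most 0.00836 RPKM. Col10a1, the collagen of hypertrophic cartilage, had at most 0.0708 RPKM. The others lay between 0.00864 RPKM (Col19a1) and 0.322 RPKM (Col27a1) at their highest.

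Some genes of enzymes that modify collagen chains rose with nickel. Of 20 genes for hydroxylation, glycosylation and folding, 0, 4 and 7 were higher at 100, 150 and 200 µM on day 4 and none was lower by the authors' deposited tables. On day 6, 1, 4 and 8 were higher and 1 was lower at each dose. For comparison, the background called lower on day 6 was 1.73% at 100 µM, 2.74% at 150 µM and 6.01% at 200 µM. Its day 4 counterpart ran from 0.602% at 100 µM to 5.0% at 200 µM. Of all genes reaching 0.5 RPKM, 0.789, 4.71 and 5.64% were higher on day 4 and 2.29, 3.16 and 6.72% on day 6. Plod2, a lysyl hydroxylase that acts on the chain ends, was at 42.3 RPKM at 200 µM against 24.6 RPKM in controls on day 4 and at 39.3 against 22.8 RPKM on day 6 (0.84 ± 0.12 and 0.8 ± 0.12, adjusted p = 1.1e-10 and 1.04e-08, in the authors' deposited tables). P4ha1 and P4ha2 encode the catalytic subunits of prolyl hydroxylase, which makes the triple helix stable. At 200 µM on day 6 P4ha1 was at 22.5 RPKM against 13.8 RPKM (0.72 ± 0.16, adjusted p = 0.000194) and P4ha2 at 14.7 against 7.25 RPKM (1.04 ± 0.16, adjusted p = 3.22e-08) in the authors' deposited table.

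The single gene of that list called lower was Serpinh1, which encodes HSP47, the chaperone of the collagen triple helix. It was at 18.2, 20.3 and 19.5 RPKM with nickel on day 4, against 24.1 RPKM in controls, and at 19.3, 15.6 and 16.2 RPKM on day 6, against 25.5 RPKM. The authors' deposited tables called it on day 6 at all 3 doses (-0.4 ± 0.1, -0.61 ± 0.13 and -0.66 ± 0.2, adjusted p = 0.00387, 0.000214 and 0.0143). On day 4 it was not called at any dose (adjusted p from 0.176 to 0.504 in the authors' deposited tables).

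Of 10 genes for proteins that share basement membranes with collagen IV and XVIII, the authors' deposited tables called 0, 7 and 5 higher at 100, 150 and 200 µM on day 4, and 3, 4 and 4 on day 6. The background shares called higher were the same 0.789, 4.71 and 5.64% on day 4 and 2.29, 3.16 and 6.72% on day 6. The genes called lower were Lama5 at 150 µM on day 4 and Lamb1 at 200 µM on day 6, both laminin chains. The background share called lower was 4.38% at 150 µM on day 4 and 6.01% at 200 µM on day 6. Hspg2, which encodes the proteoglycan perlecan, was at 48.6 RPKM at 200 µM against 29.2 RPKM in controls on day 4 (0.8 ± 0.11, adjusted p = 1.46e-10, in the authors' deposited table). On day 6 Hspg2 was at 41.8 against 26.8 RPKM (0.66 ± 0.14, adjusted p = 8.24e-05, in the authors' deposited table). Nid1, which links laminin to collagen IV, was at 39.8 against 29.3 RPKM and the proteoglycan gene Agrn at 39.2 against 29.1 RPKM at 200 µM on day 6. The laminin gene Lamb2 was at 8.21 against 4.97 RPKM there, and the authors' deposited table called all 3 (adjusted p = 0.00161, 0.0122 and 0.000194).

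In each of the lists for secretion and processing, crosslinking, receptors and degradation at most 1 gene was called in each direction per comparison, against background shares of up to 6.72% higher and 6.01% lower. Of 14 secretion and processing genes, the authors' deposited tables called Mia3, the exporter of large collagens, higher at 200 µM on day 4 and Pcolce, an enhancer of propeptide cleavage, lower in 3 comparisons. Pcolce was at 30.3 RPKM at 200 µM on day 6, against 46.5 RPKM in controls (-0.6 ± 0.12, adjusted p = 8.65e-05, in the authors' deposited table). Of 7 crosslinking genes Loxl2 was higher at 200 µM, at 4.79 against 3.17 RPKM on day 4 and 5.49 against 2.92 RPKM on day 6 (adjusted p = 0.0303 and 0.000194 in the authors' deposited tables). Of 10 receptor genes Mrc2, which takes up collagen fragments, was lower at 200 µM on day 6, at 0.733 against 1.4 RPKM (adjusted p = 0.00629 in the authors' deposited table). Of 10 matrix-degrading genes the authors' deposited tables called Mmp14, a membrane-bound collagenase, higher at 150 and 200 µM on both days and the gelatinase gene Mmp2 lower at 150 µM on day 4.

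Markers of other cell types were read from the same tables. As a background to their calls, 11.4% of all genes reaching 0.5 RPKM were called higher and 9.38% lower in at least 1 comparison. All 8 embryonic stem cell markers were over 0.5 RPKM in every group, and their sum was 6710, 7100 and 7140 RPKM with nickel on day 4 (6090 RPKM in controls) and 7110, 6560 and 7640 RPKM on day 6 (6370 RPKM in controls). Most of that sum was Dppa5a, with 3880 to 4660 RPKM with nickel and 3670 and 3880 RPKM in controls. Of these markers the authors' deposited tables called Nanog and Tdgf1 higher in all 6 comparisons, Dppa5a in 2 and Pou5f1 in 1, and Esrrb and Utf1 lower in 1 each. Of 10 fibroblast and mesenchyme markers, Lum was listed at 0 in every group and Prrx1, Postn and Dcn had at most 0.0315 RPKM. Their sum ran from 63.9 to 86.3 RPKM with nickel and was 84.8 and 69.6 RPKM in controls, most of it Vim. Thy1 was called lower in 3 comparisons of the authors' deposited tables, with 4.11 to 8.59 RPKM in nickel groups and 10.8 and 7.47 RPKM in controls. Twist1 was called higher in 1, with 0.652 to 1.48 RPKM in nickel groups and 0.812 and 0.442 RPKM in controls. The cartilage regulators Sox9 and Runx2 had at most 0.0354 RPKM. The 5 cartilage markers summed to 2.44 to 4.27 RPKM with nickel and 4.52 and 2.75 RPKM in controls, most of it Acan and Matn1. Comp was called higher in 1 comparison of the authors' deposited tables. It ranged from 0.169 to 0.726 RPKM in nickel groups and was 0.213 and 0.255 RPKM in controls. The sum of 12 endoderm markers ran from 84.6 to 105 RPKM with nickel and was 99.0 and 84.3 RPKM in controls, most of it Sparc and Lamb1. Of the 12 markers Gata4 was called higher in 3 comparisons of the authors' deposited tables, with at most 2.41 RPKM against 0.992 and 0.947 RPKM in controls. Sparc was called higher in 2, and Cubn (in 2), Dab2 and Lamb1 (in 1 each) lower. The 7 mesoderm markers summed to 2.4 to 4.09 RPKM with nickel and 2.62 and 2.59 RPKM in controls, with Hand1 called higher and Kdr lower in 2 comparisons each of the authors' deposited tables. The 6 trophectoderm markers summed to 26.1 to 29.2 RPKM with nickel and 28.2 and 23.3 RPKM in controls, most of it Tfap2c. Krt8 was called higher in 3 and Krt7 lower in 4. The 5 neural markers summed to 28.5 to 38.9 RPKM with nickel and 32.3 and 40.1 RPKM in controls, with Pax6 called higher in 4. The part of these cell types in the changes of collagen genes was not tested.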

How the data were processed

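RNA sequencing covered 16 libraries in 8 groups of 2. The submitters' processing notes name the tools STAR and DESeq2 and the build GRCm38; their versions, the settings and the use of strand: not given in the sources used here. Per the file headers, each of the 6 deposited tables gives 26239 genes with an RPKM per group, made by the authors, and the authors' log2 fold change, p-value and adjusted p-value. No table holds a value per library, so the authors' adjusted p-values were counted at 0.05, as planned for this case, with no further test of single genes. Subset sheets of the same tables were not used.

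Standard errors were implied by each deposited log2 fold change and p-value, taking their ratio as normal. The day difference was a two-sided z test with Benjamini-Hochberg adjustment, tested on simulated data. The signs of the deposited log2 fold changes matched the RPKM values in 99.8 to 100.0% of genes over 1 RPKM with a log2 fold change beyond 0.2. Depth was recovered by searching for library sizes whose RPKM steps fit low values. Of low values, 92.1 to 98.4% fell on these steps, where evenly spread values would give 7.8 to 11.0% at the depths found. That comparison does not allow for the search over many depths, so it only describes the fit. Python 3.11.15, pandas 2.3.3, scipy 1.17.1 and matplotlib 3.10.9 were used. Promoter windows are from RefSeq (GRCm38.p6), which held 35 of the 44 genes and 16 of the 21 described ones, all 16 at the tables' start.

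Members, classes and gene lists were chosen with earlier results of these data known. Full statistics were given for genes called in 2 or more comparisons and for the highest gene of each class, plus up to 4 genes of each pathway list; Col16a1, Col20a1, Col17a1, Col9a3 and Col2a1 values beyond the levels were added after they were seen. Background shares are over all genes reaching 0.5 RPKM in any group. Alternatives changed the threshold, the adjustment, the RPKM minimum, the scaling and the pseudocount.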

Additional observations from a re-analysis of the deposited data

How the results depend on the processing

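No paired analysis was possible because the tables hold 1 value per group, so neither the replicate letter as a block nor leaving out a library could be run. No collagen gene called changed direction under any alternative run, and calls were the same when p-values were adjusted over all genes with a p below 1. Only the ratio of RPKM values and the scaling could change a direction, since the other alternatives keep the authors' log2 fold change. The number of collagen genes called at 150 µM on day 4 was 3 with at least a 1.5-fold change, against 5. At 100 µM on day 6 it was 1, against 2, with an adjusted p under 0.01, with at least a 1.5-fold change, or with a minimum of 1 RPKM. At 150 µM on day 6 it was 3 with an adjusted p under 0.01 and 2 with at least a 1.5-fold change, against 5. Calls were lost at 200 µM as well. A minimum of 1 RPKM left out Col6a5 on both days and Col7a1 and Col16a1 on day 6. An adjusted p under 0.01 left out Col13a1 and Col6a4 on day 4 and Col5a3 on day 6. A 1.5-fold change left out Col18a1 on day 6. The median log2 fold change at 200 µM on day 6 was -0.09 with a minimum of 1 RPKM, against 0.47. The counts are lower because fewer genes can be called by construction, and the median was taken over 12 genes in place of 21. The log2 ratio of RPKM values was -0.46 for Col18a1 at 150 µM on day 6, where the authors' log2 fold change was -0.36, and, with 0.1 added, -1.94 for Col6a5 at 200 µM on day 6, where theirs was -2.6. The other 376 values of single genes moved by less than their error and, where an alternative gave a p-value, kept their side of the threshold. The ratio of RPKM values has none. Low levels limit the precision: the median implied standard error of the described genes ran from 0.24 to 0.35.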
